A study of Oryza sativa with 6 samples.

Results

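The GRAS and homeobox transcription factors of rice were followed in root tips before and after aluminium (Al), a metal ion that is toxic to roots in acid soils. The genes were chosen by the product text of the deposited array annotation, as probe sets assigned to 1 locus whose description named scarecrow, GRAS family, short-root, chitin-inducible gibberellin-responsive, DELLA, homeobox or WUSCHEL proteins. This gave 83 of the 34960 genes that had a probe set of their own, namely 33 GRAS genes and 50 homeobox genes, and the probe set of highest mean signal stood for each gene. The text rule itself uses no measured value, but it was set with earlier results of these data known. RNA came from tips (0 to 1 cm) of Japonica rice roots on 6 Affymetrix arrays in 2 groups, 3 arrays before Al and 3 after 6 h with 50 µM Al. The seedlings, 5 d old when Al was given, had been floated on 0.5 mM CaCl2, and the Al solution held the same CaCl2 at pH 4.5. A group held in solution for the same 6 h but lacking Al was not analysed here, and the labels leave the pH of the first group unstated, so Al, time and pH cannot be told apart. The labels call the arrays of each group biological repeats, without saying that they came from separate cultures, so the spread behind each p-value may be technical.

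GRAS proteins are plant regulators that share a C-terminal domain. In Arabidopsis roots, SHORT-ROOT moves from the stele into the neighbouring cell layer, where it acts with SCARECROW to set the divisions that separate cortex from endodermis and to keep the quiescent centre, the slowly dividing core of the stem cell niche. DELLA proteins are GRAS members that restrain growth until gibberellin, bound by its receptor GID1, marks them for breakdown. Homeobox proteins bind DNA through a homeodomain: the WOX group acts in stem cell niches and in crown root growth, class I KNOX proteins keep shoot meristem cells undifferentiated, and HD-Zip proteins, which add a leucine zipper, act in responses to light and water deficit, in vascular patterning and in the epidermis.

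Signals are MAS5 values on the log2 scale, so a difference of 1 is a 2-fold change of signal. Each array had 24836 to 25492 present calls among 57258 probe sets. Over the tested probe sets, the correlation was 0.987 within a group and 0.951 to 0.956 between the groups, a description across probe sets, which are not independent replicates. A probe set was tested with limma when at least 3 of the 6 arrays called it present, and a gene was called changed at a Benjamini-Hochberg adjusted p under 0.05 over all 25283 probe sets tested. Errors after ± are standard errors of the limma fit, and positive changes are higher after Al. The precision is limited by the number of arrays, 3 per group.

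Of the 83 genes, 50 passed the presence filter and were tested, 42 of them called present on all 6 arrays. The other 33 were too dim to test, and 26 of these were called present on no array. In the limma fit, 11 genes rose and 11 fell, and 28 did not pass. The arrays of the groups did not overlap in 28 of the 50, beside 47.5% of all tested genes. Among all 18066 genes tested, 34.0% changed, 16.2% higher and 17.8% lower. The corresponding share of the 50 was 44.0%, with 22.0% in each direction. Changes of at least 2-fold were called for 5 risers and 1 faller, beside 5.12% and 2.67% of all tested genes. A gene that passed the filter only through the group where it is high had to differ, which held for 2 of the risers. Among the 42 genes present on every array, 9 rose and 11 fell, where the shares over all 16004 such genes were 16.2% and 19.5%. The median change of the 50 was 0.07 on the log2 scale, beside -0.04 over all tested genes, with the middle quartiles of all genes from -0.26 to 0.18.

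The calls were spread unevenly over the families. Of 23 tested GRAS genes, 7 rose, 9 fell and 7 did not pass. Of 27 tested homeobox genes, 4 rose, 2 fell and 21 did not pass. The calls thus covered 69.6% of the tested GRAS genes and 22.2% of the tested homeobox genes. Over all tested genes, 34.0% were called, 16.2% higher and 17.8% lower. The homeobox rises include those that had to differ. The tested GRAS genes had a median signal of 9.56 and a median standard deviation within a group of 0.12. For the tested homeobox genes these were 8.52 and 0.17. The difference between the families was not tested. The median change was 0.07 in both families. In bulk tips, fewer cells of a type and less RNA per cell cannot be told apart, and this holds for every value that follows.

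**Figure D1:**
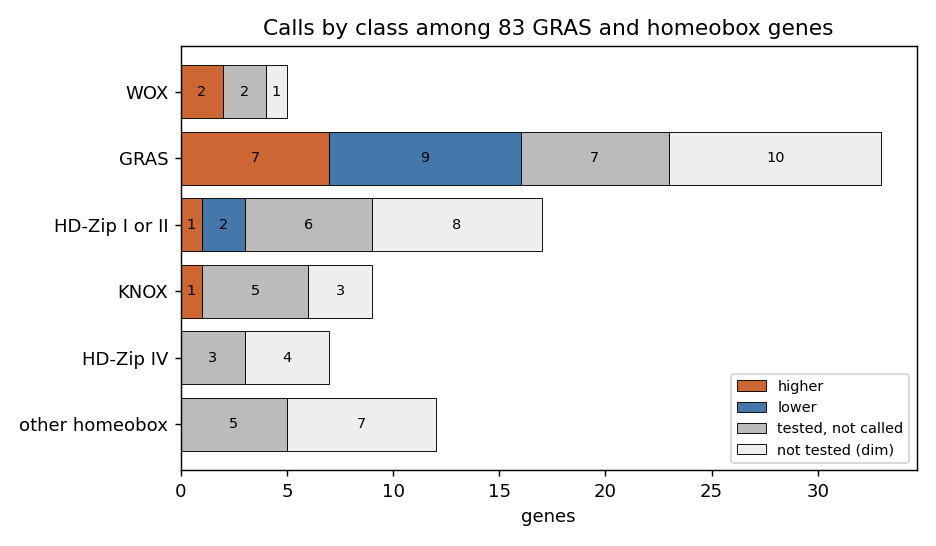
Number of genes (x axis) in each of 6 product classes (y axis), split into genes higher after Al, genes lower after Al, genes tested without a call and genes too dim to test; numbers in the bars are gene counts. GRAS genes hold 16 of the 22 calls, and no gene of the HD-Zip IV or other homeobox classes was called. Over all tested genes, 34.0% were called.

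In the WOX group, 2 of the 4 tested genes rose, beside 16.2% of all tested genes. Both went from undetected before Al to present on every array after it. The gene LOC_Os08g14400 (chromosome 8, 8632849 to 8634417, minus strand, genome build not given in the sources used here), annotated as WUSCHEL-related homeobox 11, measured 2.78, 1.65 and 2.47 before Al and 6.79, 7.30 and 6.85 after it. It was called present on 0 of 3 arrays before and 3 of 3 after, and the lowest array after Al lay far above the highest before. Because every array before Al called the gene absent or marginal, its level there is known only as a bound. With the lowest signals called present on each array (2.07 to 2.98) as a floor, it was 17.3-fold higher after Al. That ratio is not a minimum, and it ran from 15.5 to 18.5 when each array was left out in turn. The call on the signals as deposited had adjusted p = 2.32e-05 in limma. Those lowest signals are not this probe set's detection limit: LOC_Os10g40390, a gene with a SCARECROW product name, was called present on no array at signals of 7.99 to 8.71. With all signals below 5 raised to 5, the change was 1.98 on the log2 scale, so the size of the rise depends on the level assumed before Al.

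WOX11 (LOC_Os07g48560, chromosome 7, 29071349 to 29073961, plus strand) is needed for crown root emergence and growth in rice. It measured 4.27, 5.19 and 5.41 before Al, called present on 0 of 3 arrays, and 7.29, 7.09 and 7.44 after Al, called present on 3 of 3. The groups did not overlap, and the array before Al that read 4.27 was the lowest by a wide margin. Its signals before Al all lay above the lowest signals called present, so the bound is only the ratio of the 2 mean levels. That ratio, 4.99-fold higher after Al (adjusted p = 0.000343 in limma), takes no account of array spread and is not a minimum. It ran from 3.93, without the first array before Al, to 5.84 over the arrays left out, and with signals below 5 raised to 5 the change was 2.08 on the log2 scale. These are the 2 genes that passed the filter only through the arrays after Al, so they had to differ and their calls lend no support to the counts above.

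QHB (LOC_Os01g63510), the rice counterpart of Arabidopsis WOX5 and a marker of the quiescent centre, was present on all 6 arrays. It measured 6.69, 6.76 and 6.70 before Al and 7.06, 6.90 and 6.83 after it. The arrays after Al lay just above those before, but the change of 0.21 ± 0.17 (interval -0.16 to 0.58) did not pass, with adjusted p = 0.383 in limma. A further WOX gene, LOC_Os01g60270, measured 9.17, 9.18 and 9.08 before Al and 9.03, 8.92 and 9.04 after it, and its change of -0.14 did not pass either (adjusted p = 0.260 in limma). The gene annotated as protein WUSCHEL, LOC_Os04g56780, was called present on no array, with signals from 1.60 to 5.17. The rises in the WOX group were thus measured in the WOX11 gene and in the gene that shares its product name, and the difference from QHB was not tested.

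**Figure D2:**
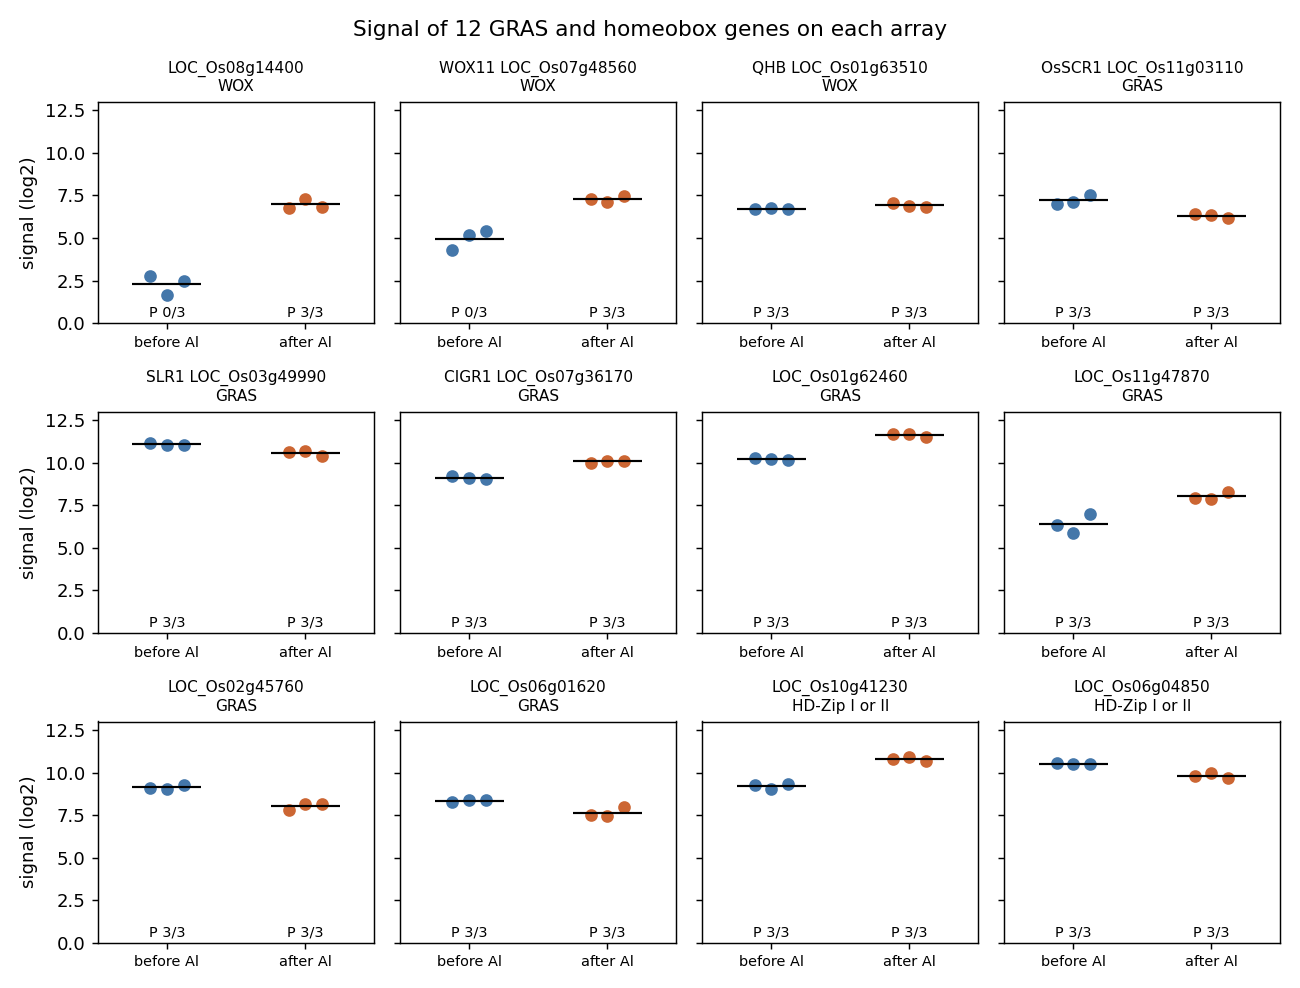
Log2 signal (y axis) of 12 genes on each of the 3 arrays before Al (blue) and 3 after it (orange); each point is an array, the line is the group mean, and P gives the number of arrays on which the gene was called present. LOC_Os08g14400 and WOX11 were present on 0 of 3 arrays before Al and 3 of 3 after it, QHB read 6.69 to 7.06 over all arrays, and OsSCR1, SLR1, LOC_Os02g45760, LOC_Os06g01620 and LOC_Os06g04850 lay lower after Al on every array.

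In the ground tissue module, OsSCR1 fell while no call was made for its partner OsSHR1. OsSCR1 (LOC_Os11g03110, chromosome 11, 1118746 to 1122351, plus strand), a rice SCARECROW that marks the endodermis, is described by the annotation as DELLA protein GAIP-B. It measured 7.00, 7.15 and 7.55 before Al and 6.40, 6.36 and 6.15 after it. Every array after Al was lower than every array before. The change was -0.93 ± 0.20 (interval -1.38 to -0.48, adjusted p = 0.00603 in limma), a 1.90-fold fall. Its probe set also aligns to a second place in the genome, so OsSCR1 and its close copy on chromosome 12, OsSCR2, which has no probe set of its own, may both contribute to the signal.

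OsSHR1 (LOC_Os07g39820), whose description carries only the abbreviation SHR and so falls outside the chosen text, measured 8.42, 8.46 and 8.46 before Al and 8.32, 8.43 and 8.34 after it. The groups overlapped, and the change of -0.08 ± 0.10 had an interval of -0.30 to 0.15 (adjusted p = 0.610 in limma). OsSHR2 (LOC_Os03g31880) was called present on no array. Of the 5 measured genes of the stem cell and ground tissue list, 4 were tested, with 1 rise (WOX11), 1 fall (OsSCR1) and no call for QHB and OsSHR1. Over all tested genes, 16.2% rose and 17.8% fell.

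Markers of root tissues were read beside these values. OsPIN2 (LOC_Os06g44970), an auxin carrier of the epidermis and outer layers, fell by 0.35 ± 0.08 on the log2 scale (adjusted p = 0.00816 in limma). The dividing-cell marker CYCB1;1 (LOC_Os01g59120) changed by -0.12 without passing (adjusted p = 0.228 in limma). The silicon transporters of mature exodermis and endodermis went different ways: Lsi1 (LOC_Os02g51110) had a change of -0.31 that just missed the threshold (adjusted p = 0.0509 in limma), whereas Lsi2 (LOC_Os03g01700) rose by 0.71 ± 0.10 (adjusted p = 0.000478 in limma). The shoot meristem marker OSH1 (LOC_Os03g51690) was called present on no array. Of the green tissue markers, 4 of 5 were measured, none was at 0 on all arrays, and of 3 tested 0 rose and 2 fell. The larger fall was that of an RbcS gene (LOC_Os02g05830, adjusted p = 0.000122 in limma). It read 8.72, 8.45 and 8.67 before Al and 5.76, 4.51 and 6.14 after it. This gene was called present on no array after Al and passed the filter only through the arrays before it. The summed linear signal of the 4 measured markers ran from 776 to 821 before Al and from 330 to 385 after it. The part of tissue make-up in the changes of the GRAS and homeobox genes was not tested.

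Among genes with a DELLA product name, 8 of 11 were tested, 0 rose and 4 fell, beside 16.2% and 17.8% of all tested genes, with a median change of -0.24. The name is broader than the function: SLR1 is the DELLA protein of rice, and OsSCR1 and DLT carry the name by the annotation alone. SLR1 (LOC_Os03g49990, chromosome 3, 28461812 to 28464323, plus strand) measured 11.13, 11.06 and 11.04 before Al and 10.61, 10.71 and 10.38 after it. The groups did not overlap, and the arrays before Al lay closer together than those after it. The fall was 0.51 ± 0.09 on the log2 scale, 1.43-fold (adjusted p = 0.00148 in limma).

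SLRL1 (LOC_Os01g45860), which lacks the DELLA motif and represses gibberellin responses in rice when overproduced, measured 7.65, 7.43 and 7.32 before Al and 7.36, 7.69 and 7.68 after it. The groups overlapped, and the change of 0.11 did not pass (adjusted p = 0.668 in limma). SLRL2 (LOC_Os05g49930) was called present on no array. The SLR1 fall was therefore the single call in this list of 3 genes. In the same pathway outside the family, the gibberellin receptor gene GID1 (LOC_Os05g33730) measured 11.30, 11.02 and 11.13 before Al and 11.48, 11.75 and 11.64 after it. It rose by 0.48 ± 0.09 on the log2 scale (adjusted p = 0.00286 in limma), opposite in sign to SLR1.

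DLT (LOC_Os06g03710), a GRAS protein of brassinosteroid signalling whose loss dwarfs rice plants, measured 9.96, 9.98 and 10.21 before Al and 9.37, 9.45 and 9.86 after it. The groups came close, with the third array after Al only just below the lowest array before. DLT fell by 0.49 ± 0.13 on the log2 scale (adjusted p = 0.0174 in limma). The call was lost without the third array before Al (adjusted p = 0.0706 in limma), without the first after Al (0.0597) or the second after Al (0.0652).

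LOC_Os03g48450, described as DELLA protein RGL1, measured 9.78, 9.72 and 9.72 before Al and 9.25, 9.41 and 9.47 after it. Its fall of 0.36 ± 0.09 on the log2 scale passed (adjusted p = 0.00955 in limma). Of its 3 tested probe sets, with changes from -0.43 to -0.22, however, only 1 was called. The name of that probe set (ending in _a_at) does not tie it to a single transcript. The genes LOC_Os04g50060, LOC_Os03g51330 and LOC_Os06g10900, with DELLA product names and no role given here, had changes of -0.03, -0.13 and 0.21 without a call. The falls within this product name were therefore those of SLR1, OsSCR1, DLT and LOC_Os03g48450.

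Genes described as chitin-inducible gibberellin-responsive, named after rice CIGR1 and CIGR2, which respond to a chitin elicitor and to gibberellin in cultured rice cells, held most of the GRAS rises. All 10 were tested, 6 rose, 1 fell and 3 did not pass, beside 16.2% higher and 17.8% lower over all tested genes. The median change was 0.40, and the difference from the DELLA-named genes was not tested. CIGR1 (LOC_Os07g36170, chromosome 7, 21613281 to 21618016) measured 9.20, 9.09 and 9.03 before Al and 10.01, 10.10 and 10.13 after it. The groups were well apart, and the rise was 0.97 ± 0.08 on the log2 scale, 1.96-fold (adjusted p = 1.73e-05 in limma). CIGR2 (LOC_Os07g39470) measured 8.95, 8.87 and 8.99 before Al and 9.17, 8.91 and 9.09 after it. Its groups overlapped, and the change of 0.12 ± 0.10 did not pass (adjusted p = 0.428 in limma), with an interval of -0.11 to 0.34 that lies below the interval of CIGR1, 0.79 to 1.16, although the difference itself was not tested.

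The strongest rise of this group was that of LOC_Os11g47870 (chromosome 11, 28312111 to 28314560, plus strand). It measured 6.36, 5.88 and 6.99 before Al and 7.93, 7.87 and 8.27 after it. The arrays before Al were widely spread, from 5.88 to 6.99, yet all lay below those after. The rise was 1.61 ± 0.26 on the log2 scale, 3.06-fold (adjusted p = 0.00126 in limma), and it ran from 1.35 to 1.90 when each array was left out. The next gene of the same product name, LOC_Os11g47900, lies 18.8 kb away, and it measured 6.53, 6.31 and 6.58 before Al and 6.92, 6.61 and 7.09 after it. Although the arrays after Al lay above those before, its change of 0.40 ± 0.20 did not pass (adjusted p = 0.163 in limma).

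Smaller rises were measured in 4 other genes of the group, all present on every array. LOC_Os01g65900 measured 11.04, 10.97 and 11.08 before Al and 11.66, 11.72 and 11.66 after it, a change of 0.65 ± 0.06. LOC_Os04g49110 rose by 0.53 ± 0.11, LOC_Os12g38490 by 0.39 ± 0.07 and LOC_Os03g09280 by 0.39 ± 0.08 on the log2 scale. Their adjusted p-values in limma ran from 2.65e-05 for LOC_Os01g65900 to 0.00501 for LOC_Os04g49110. The exception was LOC_Os02g45760 (chromosome 2, 27847986 to 27850160, minus strand), which measured 9.09, 9.05 and 9.27 before Al and 7.82, 8.16 and 8.14 after it. Its arrays after Al all lay about a whole log2 unit below those before, and it fell by 1.09 ± 0.13 on the log2 scale, 2.14-fold (adjusted p = 0.000128 in limma). This was the single fall of at least 2-fold called among the tested GRAS and homeobox genes. LOC_Os10g22430, the last of the 10, had a change of 0.07 without a call (adjusted p = 0.496 in limma).

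**Figure D3:**
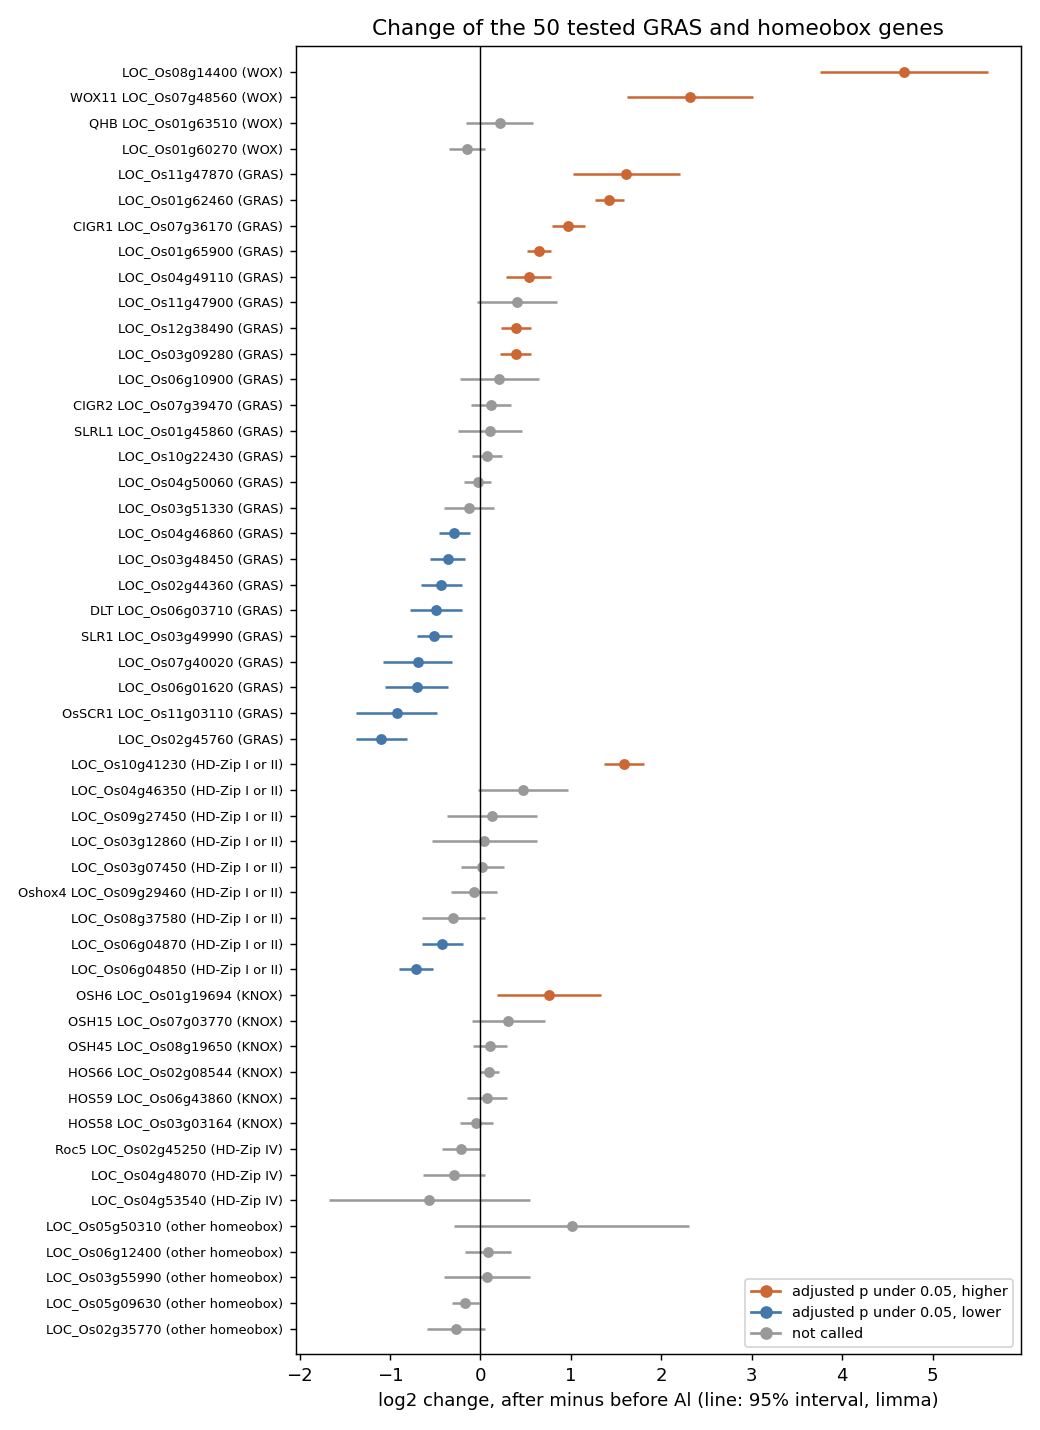
Log2 change after minus before Al (x axis) of the 50 tested genes, grouped by class (y axis); points are limma estimates, lines their 95% intervals, orange genes were called higher, blue lower and grey not called. The GRAS genes spread from -1.09 (LOC_Os02g45760) to 1.61 (LOC_Os11g47870), and LOC_Os08g14400 and WOX11 lie farthest to the right, at positions that rest on signals before Al not called present.

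Of the 6 genes with a SCARECROW product name, 4 were tested, and 1 rose and 3 fell, beside 16.2% and 17.8% of all tested genes. The riser was LOC_Os01g62460 (chromosome 1, 36485156 to 36488356, plus strand), described as SCARECROW-like, which measured 10.26, 10.21 and 10.13 before Al and 11.69, 11.67 and 11.52 after it. Arrays within each group differed little, and the groups were far apart. The rise of 1.42 ± 0.07 on the log2 scale, 2.68-fold, had an adjusted p of 5.60e-07 in limma.

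The 3 fallers are of the HAIRY MERISTEM (HAM) type, GRAS factors whose transcripts are targets of the microRNA miR171 and which in Arabidopsis keep shoot and root meristems active. A 4th gene of this list, LOC_Os02g44370, lies outside the chosen text because its description reads nodulation signaling pathway 2 protein. All 4 genes of the list were tested and all 4 fell, where 17.8% of all tested genes did, and the median change was -0.48 beside -0.04 over all tested genes. The list was drawn up with earlier results of these data known, and no test of it was made. It leaves out LOC_Os10g40390, which is described as scarecrow-like 6, as are LOC_Os04g46860 and LOC_Os06g01620 of the list. LOC_Os10g40390 was called present on no array and was not tested. Its mean signal was 8.08 before Al and 8.46 after it, with overlapping groups, so it did not share the lower readings of the list.

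LOC_Os06g01620 measured 8.25, 8.41 and 8.42 before Al and 7.54, 7.46 and 7.96 after it, and fell by 0.70 ± 0.15 on the log2 scale (adjusted p = 0.00650 in limma). LOC_Os02g44360 measured 10.37, 10.49 and 10.48 before Al and 9.81, 10.01 and 10.22 after it, and fell by 0.43 ± 0.10 (adjusted p = 0.00992 in limma). In both genes the arrays after Al were all lower, and the third array after Al lay nearest to those before. LOC_Os04g46860 measured 10.99, 11.01 and 10.78 before Al and 10.64, 10.64 and 10.63 after it, and fell by 0.29 ± 0.07 (adjusted p = 0.0161 in limma). This was the smallest of the 4 falls, and the call was lost without the first (adjusted p = 0.0634 in limma) or the second array before Al (0.0693). LOC_Os02g44370 measured 11.92, 11.89 and 11.90 before Al and 11.38, 11.36 and 11.37 after it. It had the tightest arrays of the list and fell by 0.53 ± 0.05 (adjusted p = 3.97e-05 in limma). It lies 7.77 kb from LOC_Os02g44360 on chromosome 2, so the pair are neighbours as well as relatives.

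**Figure D4:**
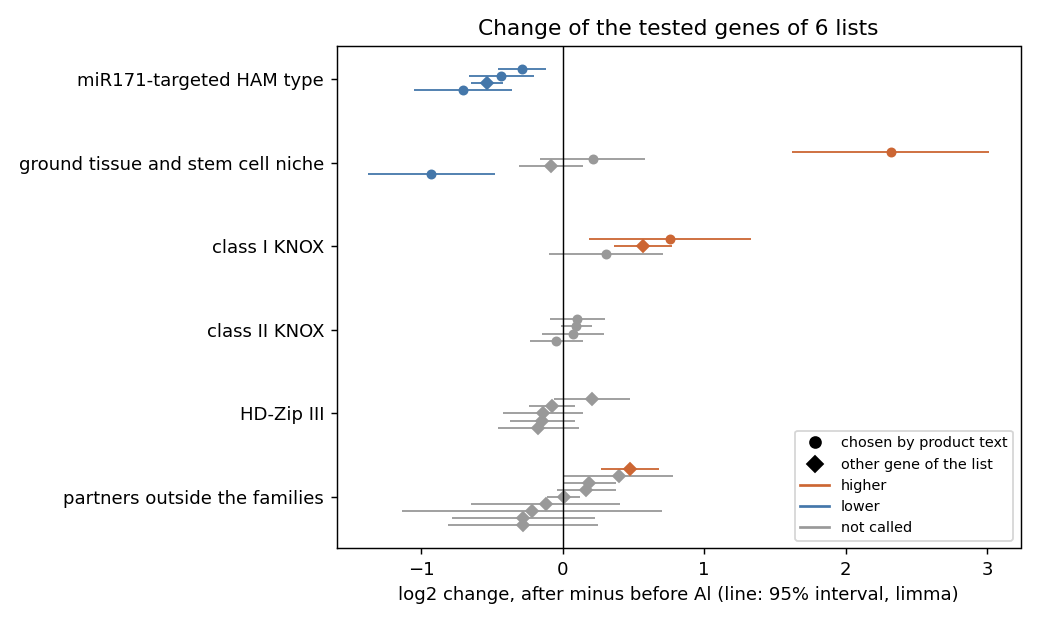
Log2 change after minus before Al (x axis) for the tested genes of 6 lists (y axis); circles are genes chosen by their product text, diamonds other genes of the list, lines are 95% limma intervals, and colour marks the call (orange higher, blue lower, grey none). All 4 genes of the HAM list were lower, none of the class II KNOX or HD-Zip III genes was called, and GID1 was the single call among the partners.

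Of 6 genes described only as GRAS family, 1 was tested. LOC_Os07g40020 measured 8.05, 8.16 and 7.72 before Al and 7.49, 7.06 and 7.28 after it, and fell by 0.70 ± 0.17 on the log2 scale (adjusted p = 0.0121 in limma), a call lost without the second array before Al (adjusted p = 0.0514 in limma). Its second probe set was also called, at -0.96. LOC_Os01g71970 missed the presence filter, with 0 of 3 arrays before Al and 2 of 3 after, and measured 7.34, 7.42 and 7.13 before Al and 8.53, 8.58 and 8.13 after it. The groups of this untested gene did not overlap, and it is not among the 11 risers. Of the symbiosis factors, NSP2 (LOC_Os03g15680, outside the chosen text), a GRAS protein of nodulation and mycorrhiza signalling in legumes and rice, had a change of 0.43 ± 0.17 that did not pass (adjusted p = 0.0879 in limma), while NSP1 (LOC_Os03g29480) and RAM1 (LOC_Os11g31100) were called present on no array. The tillering gene MOC1 had no probe set of its own.

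HD-Zip genes of classes I and II act in shade, light and water deficit responses in Arabidopsis. Of 17 such genes, 9 were tested, 1 rose and 2 fell. The calls covered 33.3% of the tested genes of these classes, beside 34.0% of all tested genes. LOC_Os10g41230 (chromosome 10, 21822960 to 21824460, plus strand), described as HAT1, a class II protein, measured 9.26, 9.03 and 9.36 before Al and 10.82, 10.89 and 10.69 after it. The groups were far apart, and the rise was 1.59 ± 0.10 on the log2 scale, 3.00-fold (adjusted p = 2.39e-06 in limma). LOC_Os06g04850, described as ATHB-4, measured 10.53, 10.51 and 10.51 before Al and 9.78, 9.96 and 9.67 after it. The arrays before Al were nearly equal and all were higher, and the fall was 0.72 ± 0.08 on the log2 scale (adjusted p = 0.000149 in limma). LOC_Os06g04870, also described as HAT1, lies 12.7 kb from it on chromosome 6 and measured 11.31, 11.39 and 11.61 before Al and 10.86, 10.99 and 11.20 after it. Its groups were separated by a small gap, and it fell by 0.42 ± 0.10 (adjusted p = 0.0110 in limma). The 2 genes described as HAT1 on chromosomes 10 and 6 thus went in opposite directions, each called on its own.

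Oshox4 (LOC_Os09g29460), a class I gene, measured 8.56, 8.49 and 8.61 before Al and 8.33, 8.47 and 8.64 after it, overlapping groups with a change of -0.07 (adjusted p = 0.675 in limma). The remaining 5 tested genes of classes I and II had changes from -0.30 for LOC_Os08g37580 to 0.47 for LOC_Os04g46350 without a call; LOC_Os08g37580 was called without the third array after Al (adjusted p = 0.0496 in limma). OsHox21 (LOC_Os03g07450, named through RefSeq) was among them, at 0.02 ± 0.11. A group of class I genes known to respond to drought and abscisic acid was read beside Oshox4. Of these, Oshox24 (LOC_Os02g43330) carries the chosen text and was called present on no array, and Oshox22 and Oshox6 lie outside it. Oshox22 (LOC_Os04g45810) measured 3.81, 5.15 and 4.39 before Al, called present on 1 of 3 arrays, and 7.10, 6.76 and 6.84 after it, called present on 3 of 3. Its arrays after Al lay well above those before, and it rose by 2.45 ± 0.35 on the log2 scale (adjusted p = 0.000533 in limma). The size of this rise rests in part on signals before Al that were not called present. Oshox6 (LOC_Os09g35910) fell by 0.40 ± 0.07 (adjusted p = 0.00241 in limma), so the list of 4 with Oshox4, 3 of them tested, held a rise, a fall and a gene without a call (Oshox4).

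HD-Zip III genes, which pattern vascular tissue and organ polarity, are described in the annotation by other words and so lie outside the chosen text. All 5 were tested and 0 were called in limma, beside 34.0% of all tested genes. Changes ran from -0.17 for Oshox32 (LOC_Os03g43930) to 0.21 for Oshox29 (LOC_Os01g10320). Oshox9 (LOC_Os10g33960), Oshox10 (LOC_Os03g01890) and Oshox33 (LOC_Os12g41860) had changes of -0.14, -0.07 and -0.14. The arrays before and after Al overlapped in each of the 5 genes.

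Of 9 KNOX genes, 6 were tested and 1 rose, beside 16.2% of all tested genes. OSH6 (LOC_Os01g19694), a class I gene, measured 5.59, 6.14 and 5.64 before Al and 6.20, 6.63 and 6.80 after it. The groups all but touched, between the highest array before Al (6.14) and the lowest after it (6.20). The rise of 0.76 ± 0.26 on the log2 scale lay at the threshold (adjusted p = 0.0496 in limma), and it was lost without the first or the third array before Al, and without the second or the third after Al (adjusted p from 0.131 to 0.141). OSH71 (LOC_Os05g03884), a class I gene whose description names a homeotic protein and which lies outside the chosen text, measured 10.30, 10.37 and 10.13 before Al and 10.69, 10.85 and 10.97 after it. Its groups did not overlap, and it rose by 0.57 ± 0.09 (adjusted p = 0.00106 in limma).

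OSH15 (LOC_Os07g03770), which acts in stem elongation, measured 7.07, 7.06 and 6.83 before Al and 7.05, 7.57 and 7.27 after it. The groups overlapped and the change of 0.31 ± 0.18 did not pass (adjusted p = 0.241 in limma), and its 2 tested probe sets read 0.31 and 0.82, both without a call. OSH1 and OSH43 (LOC_Os03g56110) were called present on no array. The class I list of 5 thus gave 3 tested genes, of which 2 rose, beside 16.2% of all tested genes. Class II KNOX genes, which act in organ differentiation in Arabidopsis, gave 4 tested genes and 0 calls in limma, beside 34.0% of all tested genes. Their changes ran from -0.04 for HOS58 (LOC_Os03g03164) to 0.10 for OSH45 (LOC_Os08g19650). HOS66 (LOC_Os02g08544) measured 12.70, 12.71 and 12.71 before Al and 12.80, 12.86 and 12.76 after it, a change of 0.10 ± 0.05 without a call although the groups did not overlap (adjusted p = 0.163 in limma). HOS59 (LOC_Os06g43860) had a change of 0.07 ± 0.10 with overlapping groups.

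HD-Zip IV proteins act in the epidermis. In this class 3 of 7 genes were tested and 0 were called in limma, beside 34.0% of all tested genes. Counts this small do not show that a class was stable. Roc5 (LOC_Os02g45250) measured 10.89, 10.81 and 10.72 before Al and 10.65, 10.75 and 10.39 after it, overlapping groups with a change of -0.21 ± 0.09 (adjusted p = 0.126 in limma). LOC_Os04g48070, described as OCL1 after a maize gene, had a change of -0.29 ± 0.15, and LOC_Os04g53540, described as GLABRA2, one of -0.57 ± 0.49. The wide error of LOC_Os04g53540 goes with its detection on only 4 of 6 arrays. Roc7 (LOC_Os08g04190, named through RefSeq) was called present on no array. With the genes of the HD-Zip IV list whose descriptions lie outside the chosen text, 5 of 11 genes were tested and 0 were called, with changes from -0.57 to -0.01.

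The other homeobox class, with 5 of 12 genes tested, gave 0 calls in limma, beside 34.0% of all tested genes. LOC_Os05g50310, described as a zinc finger homeodomain protein, measured 6.30, 5.49 and 3.58 before Al and 6.09, 6.11 and 6.19 after it. The arrays before Al were far apart and reached above those after Al, so the change of 1.01 ± 0.58 did not pass (adjusted p = 0.231 in limma). LOC_Os05g09630, described as NDX1, measured 10.43, 10.50 and 10.55 before Al and 10.31, 10.36 and 10.32 after it, and its change of -0.17 ± 0.07 did not pass (adjusted p = 0.0863 in limma) although the groups did not overlap. LOC_Os06g12400, described as HOX1A, had a change of 0.09, LOC_Os03g55990 of 0.08 and LOC_Os02g35770 of -0.27, none of them called.

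Partners of these pathways from outside the families gave no call beyond GID1. The list held 11 loci, with LOC_Os02g36974 entered under the name of another gene, as given below. Of these 11, 9 were tested, 1 rose and 0 fell, beside 16.2% and 17.8% of all tested genes, with a median change of 0.01. The 7 loci of the PLETHORA type, AP2-domain factors that set the extent of the root meristem in Arabidopsis, were all tested and gave 0 calls in limma, with changes from -0.28 for LOC_Os01g67410 and LOC_Os04g42570 to 0.40 for LOC_Os06g44750. For LOC_Os06g44750 the arrays read 6.45, 6.52 and 6.49 before Al and 6.88, 6.99 and 6.78 after it, a separation of the groups that did not pass the test (adjusted p = 0.114 in limma). The other loci were LOC_Os02g40070 at 0.19, LOC_Os04g55970 at 0.17, LOC_Os03g12950 at -0.12 and LOC_Os11g19060 at -0.21. The crown root genes CRL1 (LOC_Os03g05510) and CRL5 (LOC_Os03g07940), which act in crown root initiation in rice, were called present on no array, unlike WOX11 after Al. LOC_Os02g36974 was entered in this list as the F-box gene GID2, but the annotation describes it as a 14-3-3-like protein. It counts among the 11 loci and the 9 tested, and its change of 0.01 is also the median above. No other locus was read for GID2.

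The genes left untested were mostly GRAS (10), HD-Zip I or II (8) and other homeobox (7) genes, with 4 of HD-Zip IV, 3 KNOX and 1 WOX. Besides LOC_Os01g71970, 6 were called present on 1 or 2 of the 6 arrays. LOC_Os03g20910, a homeobox gene without a named role here, was called present on 1 array, and it measured 4.78, 2.68 and 3.69 before Al and 5.00, 5.15 and 5.98 after it. Its second probe set, called present on no array, went the other way. That probe set read 3.57, 4.12 and 4.18 before Al and 3.62, 3.26 and 0.05 after it. A gene present on no array gives no level and no fold change at this sensitivity, which is not to say that it is silent.

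Of the 83 genes, 20 had several probe sets, and for 8 of these several were tested. In each of these 8 genes the probe sets had the same sign. Of the 50 tested probe sets, 15 have names ending in _a_at, _s_at or _x_at, which do not tie them to a single transcript. They are called shared below, whether the transcripts come from the same gene or from others. Among them are those of LOC_Os02g44360, LOC_Os03g48450 and LOC_Os01g60270 (_a_at) and LOC_Os07g40020 (_x_at). In the authors' deposited table, which gives an unadjusted p and a fold of mean linear signals, 24 of the 83 genes had p under 0.05, beside 20.3% of all 34960 genes. Of these, 6 were at 2-fold or higher, 5 of them tested here, beside 3.1% of all genes, and 3 were at 0.5 times or lower, 1 of them tested here, beside 2.34% of all genes.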

How the data were processed

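RNA from 6 rice root tip samples was measured on Affymetrix arrays. The authors deposited log2 signals, made with MAS5 per the submitters' processing notes, and 2 tables hold them with equal values. Per the file headers, the deposited table also gives detection calls, a p-value per probe set and its fold change. The p-value and fold were used only where the authors' deposited table is named. The sources used here name no version, scaling target or genome build.

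The log2 signals were tested as deposited with lmFit and trended eBayes of limma 3.58.1 (R 4.3.3), two-sided and without covariates, where at least 3 of 6 arrays had a present call. Columns were assigned through each sample's description, and repeat numbers come from the titles. Adjustment (Benjamini-Hochberg) ran over 25283 probe sets, with 4 residual degrees of freedom and 9.47 after sharing the spread. The fit was tested on simulated data. A wider reading of the text rule, over every transcript description, gives 85 genes.

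The genes and lists were chosen with earlier results of these data known. Named were all list genes, calls of at least 2-fold, the 3 largest rises and falls per class, genes present on all arrays of 1 group alone, and the 10 genes of highest mean signal; other genes were named after their values were seen. Symbols are from prior knowledge, except OsHox21 and Roc7, taken from RefSeq assembly GCF_034140825.1. A bound on a fold sets the brighter mean against the higher, per array, of the dim signal and the lowest signal called present. No sequences are printed. Alternatives changed the filter, trend, normalization, floor, probe set choice, replicate block and arrays.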

Additional observations from a re-analysis of the deposited data

How the results depend on the processing

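The same 22 calls were made under quantile normalization. Over all settings run, 9 to 11 genes rose and 8 to 12 fell, against 11 and 11. The median change was least stable. Without the presence filter it was -0.044 over all 83 genes, -0.032 for GRAS and -0.056 for homeobox genes. For genes present on all 6 arrays it was -0.0052, -0.032 and 0.021. With the median over a gene's probe sets it was 0.043 for GRAS genes, and without shared probe sets 0.012 for GRAS and 0.099 for homeobox genes. With 1 array left out at a time it ran from 0.013 to 0.090 over all, from 0.026 to 0.084 for GRAS and from -0.030 to 0.096 for homeobox genes. Over all probe sets, 3000 to 3383 rose and 3126 to 3905 fell with 1 array left out. Reversed signs, all uncalled, were LOC_Os04g53540 at 0.0053 with signals below 5 raised to 5, LOC_Os06g43860 without the second array before Al (range -0.0023 to 0.19 over arrays left out) and LOC_Os03g03164 without the third (-0.12 to 0.042). With that floor the change of LOC_Os08g14400 was 1.98. Calls were lost for DLT, LOC_Os06g04870 and LOC_Os04g46860 without the intensity trend (adjusted p = 0.0637, 0.0554 and 0.0536 in limma), for OSH6 (LOC_Os01g19694) without the filter (0.147), and for OSH6 and DLT with the floor (0.0517 and 0.0577). LOC_Os03g48450 lost its call with the median over probe sets (0.301) and without shared probe sets (0.696). Calls were gained for LOC_Os01g71970 without the filter (0.00126) and LOC_Os05g09630 with the floor (0.0384). The cause of these moves was not tested.

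Repeat numbers here are those of the titles, and the column headers number the arrays after Al differently. Pairs that share a header number are therefore counted among the different numbers. Deviations from the group means in samples of the same repeat number correlated at 0.07, 0.001 and 0.09 across probe sets. Samples of different numbers correlated at -0.09 to 0.02. With 3 arrays per group, these values cannot tell whether the numbers pair the samples. With the replicate block, 11 genes rose and 11 fell, the same 22 calls, and 3710 probe sets rose and 4134 fell.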

Other observations

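Probe sets that the annotation assigns to several loci stood for no gene, and 9 of them carry the chosen text. Of these, 3 were tested and 0 were called in limma, all 3 assigned to the homeobox loci LOC_Os03g55990 and LOC_Os10g05680 together. Their changes were -0.15, -0.20 and 0.08, beside 0.08 for the probe set of LOC_Os03g55990 alone.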
